A study of Mus musculus with 27 samples.

Results

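Cholesterol synthesis was followed through 7 genes in C2C12 cells that expressed full-length NFIA, the Δpro#3 mutant or neither. The genes were taken by their symbols from 24825 genes with a value in every sample. They are the enzymes Acat2, Idi1, Fdps, Fdft1, Sqle and Lss and the transcription factor Srebf2. The list held 8 genes, and Hmgcs1 was not analysed here. No receptor for sterol uptake is among the 7, so they are called cholesterol synthesis genes below.

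C2C12 is a mouse myoblast line that fuses into myotubes in low-growth conditions and can be pushed towards fat cells by added factors. Control cells (ctrl), cells with full-length NFIA and cells with the Δpro#3 mutant, which lacks pro#3, a short stretch of the proline-rich domain at the C-terminal end, were made with retroviral vectors and compared in 9 groups of 3 samples. The groups were confluent cells at day 0, cells at day 7 of an adipogenic regimen, and cells at day 7 that also received 10 µM forskolin for 4 h. The regimen was the same for each construct: isobutylmethylxanthine, indomethacin, dexamethasone, insulin, T3 and rosiglitazone first, and insulin, T3 and rosiglitazone after that. Forskolin raises cyclic AMP and mimics adrenergic stimulation of fat cells. NFIA was therefore overexpressed from a vector in a muscle cell line, and nothing in the labels says whether the replicates were separate cultures, so that the p-values measure the spread between these samples.

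Cholesterol is built from acetyl-CoA through mevalonate, the isoprenoid diphosphates and squalene. When membrane sterol falls, SREBP-2, the product of Srebf2, is released from its anchors in the endoplasmic reticulum and switches on most enzymes of the route together, whereas INSIG proteins hold it back when sterol is plentiful. SREBP-1, the product of Srebf1, acts mainly on fatty acid synthesis and is itself raised by the sterol receptor LXRα, the product of Nr1h3. Proliferating cells need the route for new membrane, and fat cells store much of their free cholesterol in the lipid droplet.

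Polyadenylated RNA gave FPKM values (fragments per gene, scaled by gene length and library total), which allow levels to be compared between genes. Between 9567769 and 27230965 fragments were assigned to genes per sample, with a median of 17707223. Differences were tested on log2(FPKM + 1) with limma over all genes that reached a mean of 0.5 FPKM. A gene is called higher or lower where the Benjamini-Hochberg adjusted p was under 0.05 and the change in FPKM + 1 was at least 1.5-fold. Folds below are on that scale, which understates changes of genes with low FPKM.

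Nfia was at 225, 249 and 250.2 FPKM in the NFIA cells and 397, 398 and 423 FPKM in the Δpro#3 cells at day 0, but it was 0.175, 0.879 and 7.35 FPKM in the controls, where 1 library stood above the other 2. At day 7 it was 457, 459.6 and 528 FPKM with NFIA and 374, 383 and 480.5 FPKM with Δpro#3, and with forskolin 497, 524 and 594 FPKM and 262, 277 and 344 FPKM. The level was thus higher with the mutant at day 0, overlapped between the constructs at day 7 and was lower with the mutant after forskolin, and its part in the differences between the constructs was not tested. The gene's total level does not separate the full-length from the mutant form. No call on a cholesterol synthesis gene against ctrl at day 0 changed without the ctrl library that stood above the others. The summed level of 10 myogenic markers at day 0 was 1704 to 1818 FPKM in ctrl, 142 to 151 FPKM with NFIA and 426 to 434 FPKM with Δpro#3. At day 7 it was 13016 to 15092, 2287 to 3191 and 14921 to 15840 FPKM. The sum of 8 adipocyte markers at day 0 was 40.5 to 49.1 FPKM in ctrl, 432 to 459 FPKM with NFIA and 318 to 335 FPKM with Δpro#3. At day 7 it was 360 to 398 FPKM in ctrl, 13485 to 15002 FPKM with NFIA and 632 to 2041 FPKM with Δpro#3, 1 sample of which stood far above its replicates. Of 4 macrophage markers, 3 were under 0.5 FPKM in every sample of each group, and so were at least 2 of 3 endothelial markers. The remaining macrophage marker, Cd68, was called higher at day 7 than at day 0 in each construct. The summed level of the 4 was 2.02 to 2.68 FPKM in ctrl at day 0, 15.2 to 15.9 FPKM at day 7 and 19.4 to 26.6 FPKM with forskolin. Cd68 was higher than in ctrl with Δpro#3 at day 0 (log2 change 0.60) but lower at day 7 (-0.81) and with forskolin (-1.66), and with NFIA and forskolin (-1.02), and its part in the results was not tested. Replicate 1 of the Δpro#3 cells at day 7, of the NFIA cells with forskolin and of the Δpro#3 cells with forskolin stood apart from both replicates of its group, with a chi-square per gene of 11.9 to 15 against 3.4 to 6.04 between the other 2. Without either forskolin library no call on the 7 genes changed. In bulk RNA of such cultures, fewer cells of a type and less RNA per cell cannot be told apart.

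The genes lie on 6 chromosomes of the mm9 build used for the FPKM, at chr17:13135756-13153613 (Acat2), chr13:8884852-8891641 (Idi1), chr3:88897514-88905881 (Fdps), chr14:63763990-63796630 (Fdft1), chr15:59146632-59162747 (Sqle), chr10:75994333-76019883 (Lss) and chr15:81977696-82035806 (Srebf2). Acat3, a close copy of Acat2, lies beside it on the same strand, and reads that matched both were left out by the unique mapping, so the level of Acat2 is less certain. Fdft1 and Lss overlap genes on the opposite strand, from which they were separated by counting on the matched strand.

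RefSeq start sites (GRCm38.p6) were matched for 4 of the 7 genes, Acat2, Idi1, Lss and Srebf2, and their promoter sequences are shown. Acat2, Idi1 and Lss are enzymes called higher with NFIA at day 0, and Srebf2 was not called there. Fdps, Fdft1 and Sqle are named only. The 250 bases before the start are given 5′ to 3′ along the gene. Capitals mark CCAAT, the motif bound by NF-Y, and TCACNCCA, a core of the sterol response element, on either strand. Acat2 is at chr17:12960726-12960975 on the minus strand, Idi1 at chr13:8885356-8885605, Lss at chr10:76531355-76531604 and Srebf2 at chr15:82147019-82147268, all on the plus strand.
Acat2: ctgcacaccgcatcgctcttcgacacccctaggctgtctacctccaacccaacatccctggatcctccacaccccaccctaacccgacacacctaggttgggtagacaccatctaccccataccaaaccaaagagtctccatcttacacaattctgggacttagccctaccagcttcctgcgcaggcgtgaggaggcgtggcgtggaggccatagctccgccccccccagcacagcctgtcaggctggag
Idi1: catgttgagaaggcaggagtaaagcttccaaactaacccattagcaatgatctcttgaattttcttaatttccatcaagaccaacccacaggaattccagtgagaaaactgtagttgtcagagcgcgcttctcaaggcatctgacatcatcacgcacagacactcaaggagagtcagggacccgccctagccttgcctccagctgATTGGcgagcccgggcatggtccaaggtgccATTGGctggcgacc
Lss: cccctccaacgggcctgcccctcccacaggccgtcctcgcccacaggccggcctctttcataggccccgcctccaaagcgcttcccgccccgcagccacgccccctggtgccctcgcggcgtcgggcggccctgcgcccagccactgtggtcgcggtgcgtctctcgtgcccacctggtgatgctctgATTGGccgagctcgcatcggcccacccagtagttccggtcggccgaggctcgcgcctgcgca
Srebf2: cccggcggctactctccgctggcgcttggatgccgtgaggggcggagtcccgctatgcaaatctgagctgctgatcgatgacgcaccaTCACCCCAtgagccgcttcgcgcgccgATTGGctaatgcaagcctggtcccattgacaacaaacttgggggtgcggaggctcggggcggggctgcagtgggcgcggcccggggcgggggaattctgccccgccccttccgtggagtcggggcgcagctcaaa

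The Srebf2 promoter was the one with a TCACNCCA match, which began at position -162 from the start and read TCACCCCA. Such a match was found in 3.67% of 32851 promoters of this length. CCAAT, read as ATTGG on the gene's strand, stood at -45 and -14 in Idi1, at -62 in Lss and at -135 in Srebf2. The Acat2 window had no CCAAT, while 33.8% of all promoters had one. GGGCGG, the Sp1 box, was matched in each of the 4 promoters and in 32.7% of all promoters. TTGGC, 1 arm of the palindrome bound by the NFI family to which NFIA belongs, was matched in 3 of the 4 promoters and in 41.5% of all. Each TTGGC match in these 4 windows shared letters with a reversed CCAAT. These are letter matches on both strands. The authors mapped binding of both NFIA forms in C2C12 cells before differentiation by ChIP-seq, which was not read at these windows here.

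**Figure D1:**
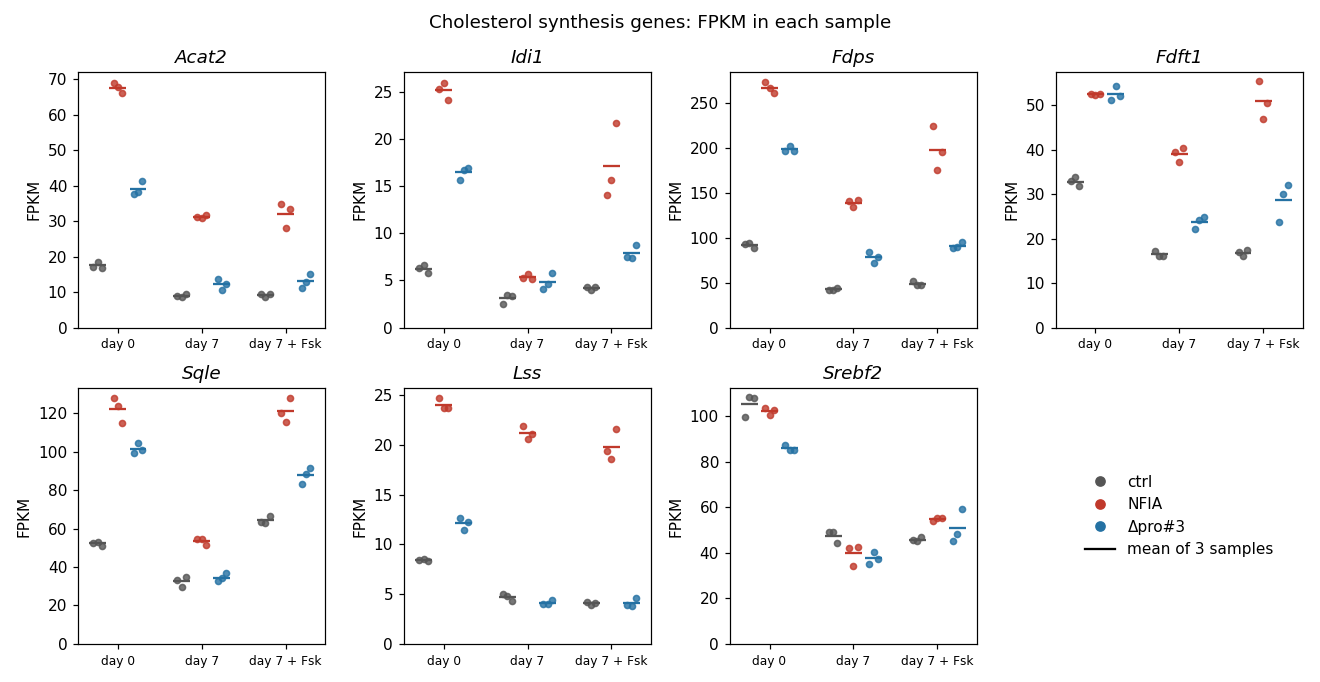
FPKM (linear axis from 0) of each gene in the 27 samples, by time point; each point is 1 sample and each bar the mean of the 3 samples of a group. The enzymes were highest with NFIA in most panels, at means of 267 FPKM for Fdps and 67.7 FPKM for Acat2 at day 0, whereas Srebf2 followed the time point, with 105 FPKM in ctrl at day 0 and 47.6 FPKM at day 7.

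First, the effect of NFIA in undifferentiated cells was asked at day 0. All 6 enzymes were higher with NFIA than in ctrl, and Srebf2 was not called. Over all 12105 genes tested, 13.4% were called higher. The median log2 change of the 7 genes was 1.41, and that of all genes was 0.0083. Acat2, the cytosolic thiolase that joins acetyl-CoA units at the head of the route, was at 16.9, 17.2 and 18.6 FPKM in ctrl, 66.2, 67.9 and 69.1 FPKM with NFIA and 37.7, 38.3 and 41.4 FPKM with Δpro#3. The 3 groups did not overlap, and NFIA stood highest. The level with NFIA was higher than in ctrl by 3.71-fold (log2 change 1.89, SE 0.044, adjusted p = 3.31e-11).

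Idi1 and Fdps make and join the isoprenoid units, isopentenyl and dimethylallyl diphosphate, into farnesyl diphosphate. Idi1 was at 5.77, 6.29 and 6.61 FPKM in ctrl, 24.2, 25.4 and 26.0 FPKM with NFIA and 15.7, 16.8 and 16.9 FPKM with Δpro#3. Fdps, the most abundant of the enzymes, was in the same order at 88.6, 93.4 and 93.9 FPKM, 261, 267 and 273 FPKM and 196, 197 and 202 FPKM. Both genes had the same order as Acat2, with no overlap between constructs. With NFIA, Idi1 was higher by 3.63-fold (log2 change 1.86, SE 0.049, adjusted p = 8.42e-11) and Fdps by 2.88-fold (log2 change 1.53, SE 0.032, adjusted p = 1.64e-11).

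Fdft1 and Sqle, squalene synthase and squalene epoxidase, start the branch that is committed to sterols. Fdft1 was at 31.8, 32.9 and 33.9 FPKM in ctrl, 52.3, 52.6 and 52.6 FPKM with NFIA and 51.3, 52.2 and 54.4 FPKM with Δpro#3. It had the smallest change of the 6 enzymes, 1.58-fold, and the samples of the 2 NFIA constructs overlapped. Sqle was at 51.1, 52.6 and 53.2 FPKM in ctrl, 115, 124 and 128 FPKM with NFIA and 99.1, 101 and 104 FPKM with Δpro#3, and the NFIA level was 2.31-fold that of ctrl. Lss, the cyclase that closes the sterol rings to give lanosterol, was in the same order at 8.31, 8.38 and 8.48 FPKM, 23.7, 23.7 and 24.6 FPKM and 11.5, 12.2 and 12.6 FPKM. Its level was 2.66-fold higher with NFIA than in ctrl.

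Srebf2 was at 99.8, 108 and 109 FPKM in ctrl, 101, 103 and 104 FPKM with NFIA and 85.0, 85.2 and 87.4 FPKM with Δpro#3 at day 0. Samples of ctrl and NFIA overlapped, and the difference was small (log2 change -0.042, SE 0.035, adjusted p = 0.301, 95% interval -0.12 to 0.036). The Δpro#3 samples lay below both other groups at a log2 change from ctrl of -0.29, under the 1.5-fold limit.

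The Δpro#3 mutant was next compared with ctrl at day 0. Of the 7 genes, 5 were higher with the mutant, beside 7.26% of all genes. The folds were 2.16-fold for Acat2, 2.42-fold for Idi1, 2.14-fold for Fdps, 1.58-fold for Fdft1 and 1.92-fold for Sqle. Lss missed the fold limit at 1.40-fold, although its samples did not overlap with those of ctrl (adjusted p = 1.28e-06). Set against full-length NFIA, the mutant gave lower Acat2 (1.71-fold, log2 change -0.78, SE 0.044, adjusted p = 7.16e-08) and lower Lss (1.91-fold, log2 change -0.93, SE 0.038, adjusted p = 6.45e-09), 2 of the 7 genes, beside 8.66% of all genes called lower. Idi1 stood just under the fold limit (log2 change -0.58) and was called with a pseudocount of 0.1 (-0.61), by limma-voom (-0.63), and without NFIA replicate 3 (-0.61), Δpro#3 replicate 2 (-0.60) or Δpro#3 replicate 3 (-0.60). The log2 difference of Fdft1 between the constructs had a 95% interval of -0.068 to 0.074.

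Proliferation markers moved with NFIA at day 0. The summed level of the 4 genes was 96.5 to 99.1 FPKM in ctrl, 268 to 275 FPKM with NFIA and 115 to 124 FPKM with Δpro#3, and each of the 4 was called higher with NFIA. With Δpro#3 their log2 changes from ctrl were 0.14 to 0.48, under the fold limit, where 5 of the cholesterol synthesis genes were called. Of the 8 adipocyte markers, 4 passed the filter at day 0, and all 4 were called higher than in ctrl with NFIA (median log2 change 2.83) and with Δpro#3 (1.67). The part of proliferation and of adipocyte markers in the levels at day 0 was not tested.

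**Figure D2:**
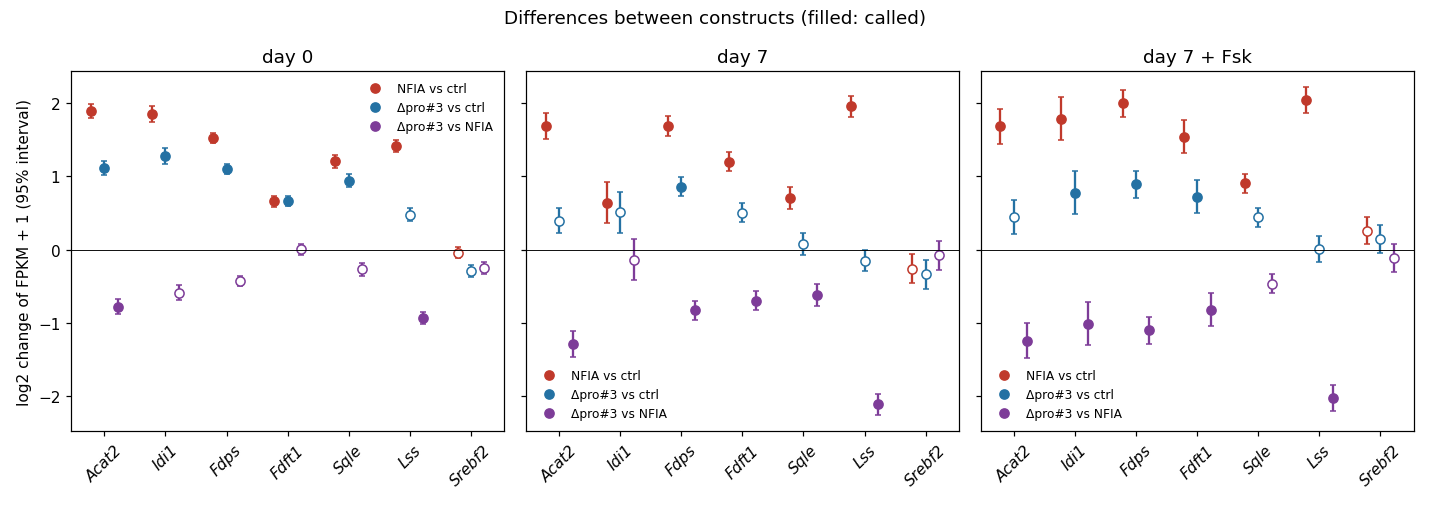
Log2 change of FPKM + 1 between constructs for each gene at day 0, day 7 and day 7 with forskolin (Fsk), with 95% intervals from limma; filled points passed the test and the 1.5-fold limit. With NFIA against ctrl the 6 enzymes are filled at each time point, and against NFIA the mutant has its lowest point at Lss, -2.11 at day 7.

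After differentiation, at day 7, the same 6 enzymes were higher with NFIA than in ctrl, beside 16.8% of all 12324 genes. The median log2 change of the 7 genes was 1.20 and that of all genes -0.080. Acat2 was at 8.64, 8.98 and 9.45 FPKM in ctrl, 30.9, 31.3 and 31.8 FPKM with NFIA and 10.7, 12.4 and 13.7 FPKM with Δpro#3. Fdps was, in the same order, at 41.5, 42.2 and 43.6 FPKM, 134, 141 and 142 FPKM and 71.9, 78.6 and 83.5 FPKM. Lss was, in the same order, at 4.34, 4.81 and 4.98 FPKM, 20.5, 21.1 and 21.9 FPKM and 4.01, 4.01 and 4.37 FPKM. For all 3 genes every NFIA sample was above every sample of the other cells, and for Lss the ctrl and Δpro#3 samples overlapped. The folds of NFIA over ctrl were 3.22-fold for Acat2, 3.22-fold for Fdps and 3.89-fold for Lss, with adjusted p-values of 2.38e-08, 3.22e-09 and 2.16e-09.

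The other 3 enzymes had smaller fold changes at day 7. Fdft1 was at 16.0, 16.1 and 17.2 FPKM in ctrl, 37.3, 39.6 and 40.4 FPKM with NFIA and 22.3, 24.1 and 24.9 FPKM with Δpro#3, 2.30-fold higher with NFIA than in ctrl. Sqle was, in the same order, at 29.6, 33.5 and 34.6 FPKM, 51.4, 54.6 and 54.7 FPKM and 32.7, 34.0 and 36.8 FPKM, 1.63-fold higher with NFIA than in ctrl. Idi1 was at 2.47, 3.30 and 3.50 FPKM in ctrl, 5.19, 5.21 and 5.67 FPKM with NFIA and 4.07, 4.61 and 5.81 FPKM with Δpro#3. Idi1 was higher with NFIA by 1.56-fold (log2 change 0.64, SE 0.12, adjusted p = 8.55e-04), and without ctrl replicate 1 its log2 change was 0.53 and was no longer called. Srebf2 was at 44.4, 49.1 and 49.2 FPKM in ctrl, 34.3, 42.3 and 42.6 FPKM with NFIA and 35.0, 37.3 and 40.4 FPKM with Δpro#3. Every NFIA sample of Srebf2 was below every ctrl sample, at a log2 change of -0.26 that did not reach the fold limit. In the same comparison all 8 adipocyte markers were called higher and all 10 myogenic markers lower, and their part in these differences was not tested.

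With the Δpro#3 mutant at day 7, Fdps was the 1 gene of the 7 called higher than in ctrl, by 1.82-fold (log2 change 0.86, SE 0.059, adjusted p = 3.44e-06), beside 6.94% of all genes. Acat2, Idi1 and Fdft1 were at 1.32-fold, 1.42-fold and 1.42-fold the ctrl level with no overlap of samples. Sqle was at 1.06-fold the ctrl level (95% interval -0.071 to 0.23 on the log2 scale). Without the Δpro#3 sample that was high in adipocyte markers, Idi1 was also called (log2 change 0.60). A pseudocount of 0.1 also gave a call on Idi1 (0.63), and limma-voom called Idi1 (0.72) and Fdft1 (0.59). Against full-length NFIA, 5 enzymes were lower with the mutant, beside 13.3% of all genes. Lss was lower by 4.32-fold (log2 change -2.11, SE 0.065, adjusted p = 2.50e-09), and Acat2 by 2.45-fold, Fdps by 1.77-fold, Fdft1 by 1.62-fold and Sqle by 1.54-fold. The call on Sqle was lost without the same Δpro#3 sample (log2 change -0.58). In that comparison all 8 adipocyte markers were lower with the mutant (median log2 change -3.56) and all 10 myogenic markers higher, and against ctrl 5 of the 8 adipocyte markers were higher with the mutant. The part of these markers was not tested. Idi1 samples of the 2 constructs overlapped (log2 change -0.14, SE 0.12, adjusted p = 0.363).

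The change from day 0 to day 7 was then measured within each construct. All 7 genes fell in ctrl, beside 21.7% of all 12408 genes, by 1.59-fold for Sqle to 2.19-fold for Srebf2. All 7 fell with Δpro#3 as well, beside 21.7% of all genes, by 2.17-fold for Fdft1 to 3.04-fold for Acat2. With NFIA 5 of the 7 fell, beside 22.2% of all genes. Idi1 fell most with NFIA, by 4.12-fold (log2 change -2.04, SE 0.099, adjusted p = 4.94e-12), followed by Srebf2 at 2.55-fold. Lss with NFIA had a small difference between the times (log2 change -0.17) and Fdft1 was 1.34-fold lower at day 7. Neither of these was called. The median log2 change of all genes was -0.11 with NFIA and -0.11 with Δpro#3, and -0.056 in ctrl.

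The difference of these changes was tested in 1 model with ctrl. Idi1 fell further with NFIA than in ctrl, with a difference of -1.21 on the log2 scale (SE 0.14, adjusted p = 7.59e-07), and it was the 1 gene of the 7 called in that direction, beside 20.5% of all genes. Lss and Fdft1 had differences of 0.55 and 0.54, which were a smaller fall with NFIA but under the fold limit. Both were called when the samples were scaled by their median ratios. With Δpro#3 the fall was larger than in ctrl for 4 of the 7, beside 6.98% of all genes. The differences were -0.72 for Acat2, -0.77 for Idi1, -0.86 for Sqle and -0.63 for Lss. The call on Lss was lost after scaling by median ratios (-0.58), which left 3 of the 7. Srebf2 had a difference of -0.041 (95% interval -0.25 to 0.17). All 4 proliferation markers were called lower at day 7 than at day 0 in each construct, and they fell further with NFIA than in ctrl (4 of 4, median difference -1.32 on the log2 scale). In the same test 8 of 10 myogenic and 6 of 8 adipocyte markers were called higher with NFIA, beside 16.9% of all genes. Of the adipocyte markers 1 was called lower, beside 20.5% of all genes. With Δpro#3 the differences of the proliferation markers were -0.51 to -0.10, under the fold limit. Of 10 myogenic markers 9 were called higher and 1 lower with Δpro#3, and of 8 adipocyte markers 2 were higher and 3 lower. Over all genes 7.82% were higher and 6.98% lower in that test. The part of these markers in the fall of the 7 genes and in its differences was not tested.

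**Figure D3:**
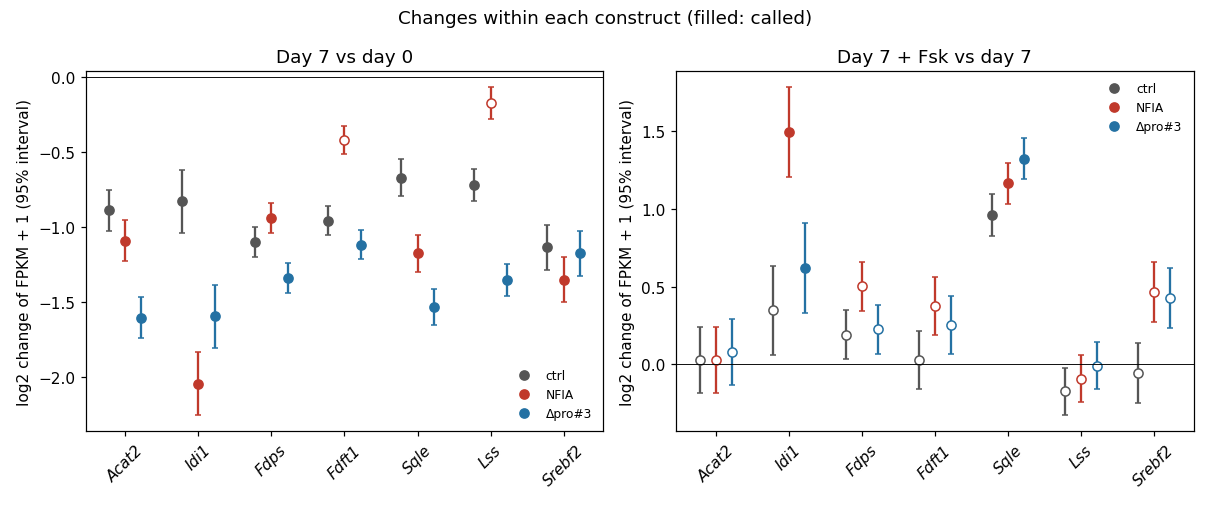
Log2 change of FPKM + 1 within each construct, from day 0 to day 7 and with forskolin (Fsk) at day 7, with 95% intervals from limma; filled points passed the test and the 1.5-fold limit. Nearly all points of the left panel lie well below 0, except Lss with NFIA at -0.17; on the right, Sqle lies between 0.96 and 1.32 in the 3 constructs and Idi1 reaches 1.49 with NFIA.

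Treatment with forskolin for 4 h raised few genes. In ctrl, 2.2% of all 12245 genes were called higher, and Sqle was the 1 gene of the 7 among them. In the NFIA cells 2 of the 7, Idi1 and Sqle, were called, beside 3.96% of all genes, and in the Δpro#3 cells the same pair, beside 3.32% of all genes. Of the 8 adipocyte markers, 5 were called lower with forskolin in the Δpro#3 cells (median log2 change of the 8 -1.17), beside 4.12% of all genes. The summed level of the 8 was 632 to 2041 FPKM before and 554 to 916 FPKM after. In the NFIA cells 2 of the 8 were called lower, beside 9.56% of all genes. The part of these markers in the responses was not tested. Sqle was at 62.6, 63.3 and 66.7 FPKM in forskolin-treated ctrl cells, 116, 119.9 and 128 FPKM with NFIA and 83.3, 88.6 and 91.4 FPKM with Δpro#3. Each treated sample was above each untreated one of its construct. The log2 change was 0.96 in ctrl, 1.16 with NFIA and 1.32 with Δpro#3, with adjusted p-values of 1.39e-08, 4.19e-10 and 1.38e-10.

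Idi1 was at 3.94, 4.27 and 4.31 FPKM in treated ctrl cells, 14.1, 15.6 and 21.7 FPKM with NFIA and 7.38, 7.52 and 8.80 FPKM with Δpro#3. Its rise was 2.81-fold (log2 change 1.49, SE 0.14, adjusted p = 1.63e-07) with NFIA and 1.53-fold with Δpro#3. In ctrl it was at 1.27-fold the untreated level (adjusted p = 0.086). The call with Δpro#3 was lost without Δpro#3 replicate 1 of the untreated cells (log2 change 0.52) or replicate 3 of the treated cells (0.55). The response of Idi1 was larger with NFIA than in ctrl by 1.15 on the log2 scale (SE 0.19, adjusted p = 3.09e-04), 1 of the 7 genes, beside 3.28% of all. Srebf2 had a difference of 0.52 in that test (adjusted p = 0.00639), under the fold limit. It was called after scaling by median ratios (0.60) and by limma-voom (0.62). Between Δpro#3 and ctrl the log2 differences in response of the 7 genes were 0.033 to 0.48, under the fold limit, beside 1.11% of all genes called higher. Sqle and Srebf2 were the 2 with an adjusted or unadjusted p under 0.05 in this limma test, and limma-voom called 0.

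For the other 5 genes no rise was called in any construct by limma on log2(FPKM + 1) of all samples without scaling. Fdps was at 47.2, 47.4 and 51.3 FPKM in treated ctrl cells, 175, 195 and 224 FPKM with NFIA and 88.5, 89.7 and 95.3 FPKM with Δpro#3. Fdft1 was, in the same order, at 16.0, 17.0 and 17.4 FPKM, 47.1, 50.7 and 55.6 FPKM and 23.7, 30.2 and 32.1 FPKM. Srebf2 was at 45.1, 45.4 and 46.7 FPKM in treated ctrl cells, 53.9, 55.4 and 55.5 FPKM with NFIA and 45.3, 48.3 and 59.4 FPKM with Δpro#3. With NFIA the treated samples of these 3 genes were above the untreated ones, at 1.41-fold for Fdps, 1.30-fold for Fdft1 and 1.38-fold for Srebf2. With Δpro#3 the treated samples were also above the untreated ones for Srebf2 (1.34-fold, adjusted p = 0.00179) and Fdps (1.17-fold, adjusted p = 0.026). In ctrl the treated Fdps samples lay above the untreated ones as well (1.14-fold, adjusted p = 0.0798). None of these reached 1.5-fold, but the median log2 change of all genes with forskolin in the NFIA cells was -0.15, and after scaling by median ratios Fdps (0.64) and Srebf2 (0.60) were called there. Limma-voom called both as well (0.65 and 0.62), and Fdps was also called without replicate 2 of the treated NFIA cells (0.59). Acat2 was at 8.74, 9.43 and 9.54 FPKM, 28.1, 33.3 and 34.8 FPKM and 11.1, 12.8 and 15.2 FPKM, with ctrl first, then NFIA and Δpro#3. Lss was, in that order, at 3.91, 4.05 and 4.21 FPKM, 18.6, 19.3 and 21.6 FPKM and 3.79, 3.90 and 4.63 FPKM. Treated and untreated samples of Acat2 overlapped in every construct. Lss with NFIA had a log2 change of -0.093 that turned to 0.039 with median-ratio scaling, and neither was called.

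Among forskolin-treated cells the constructs again differed. All 6 enzymes were higher with NFIA than in ctrl, beside 13.5% of all 12121 genes, from 1.87-fold for Sqle to 4.11-fold for Lss. The median log2 change of all genes was -0.17 here, and that of the 7 genes was 1.69. Srebf2 was above ctrl in every NFIA sample, at a log2 change of 0.26 that was not called. With Δpro#3, Idi1, Fdps and Fdft1 were higher than in ctrl, 3 of the 7 beside 6.4% of all genes, at 1.72-fold, 1.86-fold and 1.65-fold. Against NFIA, 5 of the 7 were lower with the mutant, beside 11.4% of all genes, and Lss again the most, by 4.08-fold (log2 change -2.03, SE 0.081, adjusted p = 4.25e-09). Sqle was 1.38-fold lower and was called after scaling by median ratios (log2 change -0.60). The median log2 change of all genes in that comparison was 0.12. With forskolin all 8 adipocyte markers were called higher and all 10 myogenic markers lower with NFIA than in ctrl, and the reverse held for Δpro#3 against NFIA. The part of these markers was not tested. Comparisons at 1 time point share their samples, and so do the day 7 cells in the time and forskolin comparisons.

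Across the 9 groups the order of levels differed by gene. Acat2 had the widest range of group means of FPKM + 1, 6.86-fold between NFIA cells at day 0 (67.7 ± 1.47 FPKM, mean ± SD, n = 3) and ctrl at day 7 (9.02 ± 0.405 FPKM). Idi1 ranged 6.44-fold and Fdps 6.17-fold, between the same highest and lowest groups. As a plain ratio of mean FPKM the range of Idi1 was the widest, at 8.14-fold beside 7.51-fold for Acat2. Sqle ranged 3.67-fold, and its 2 highest groups, NFIA at day 0 (122 ± 6.66 FPKM) and NFIA with forskolin (121 ± 6.36 FPKM), overlapped. The order of Lss put the 3 NFIA groups first (24.0 ± 0.562, 21.2 ± 0.685 and 19.8 ± 1.55 FPKM), then Δpro#3 and ctrl at day 0 (12.1 ± 0.594 and 8.39 ± 0.0857 FPKM). The last 4 groups of Lss, ctrl and Δpro#3 at day 7 with or without forskolin, had means of 4.06 to 4.71 FPKM, and neighbours among them overlapped. Fdft1 ranged 3.07-fold, with Δpro#3 at day 0, NFIA at day 0 and NFIA with forskolin overlapping at the top. Srebf2 had the narrowest range, 2.76-fold, from 105 ± 4.91 FPKM in ctrl at day 0 to 37.6 ± 2.68 FPKM with Δpro#3 at day 7. Its 3 day 0 groups came first and 5 of the 8 steps between neighbouring groups overlapped, whereas 2 of 8 did for Fdps.

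Over the 9 group means of log2(FPKM + 1), which share constructs and time points, the 15 pairs of enzymes had Pearson correlations of 0.589 to 0.983 with a median of 0.877. Srebf2 had correlations of 0.409 to 0.633 with the enzymes. The profile most like the mean of the 7 genes, among 6858 genes with a range of at least 1 log2 unit, was that of Cyp51, the lanosterol demethylase of the same route (r = 0.996). Elovl6, a fatty acid elongase (0.976), Cxadr, a cell adhesion receptor (0.973), P4hb, a disulfide isomerase of the endoplasmic reticulum (0.967), and Sorbs3, an adaptor of the cytoskeleton (0.958), came next among genes outside the 7.

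**Figure D4:**
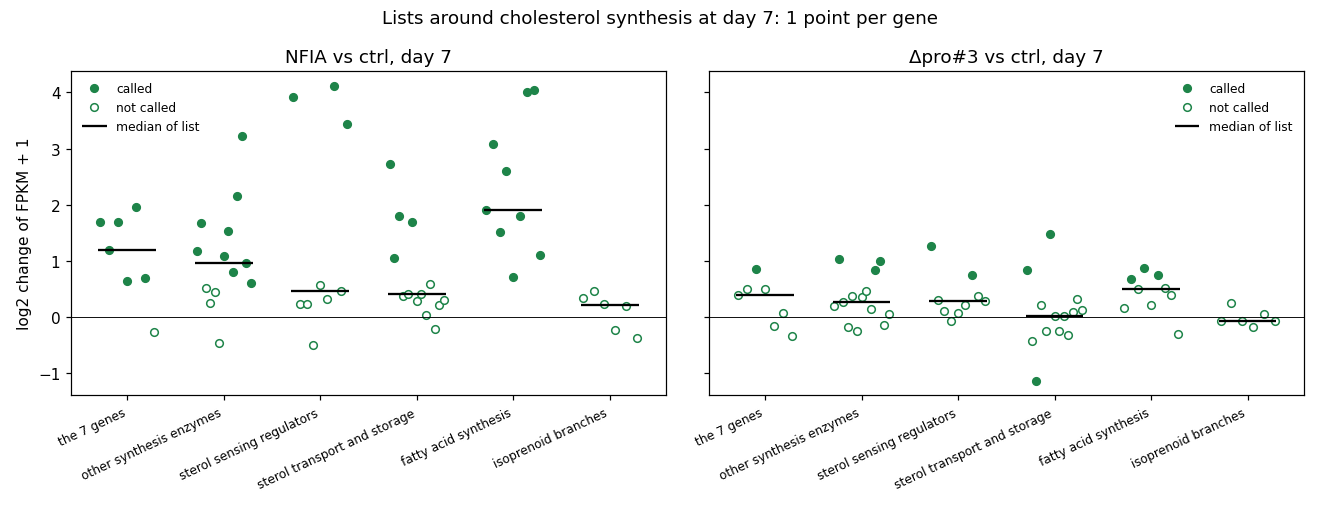
Log2 change of FPKM + 1 at day 7 for NFIA against ctrl (left) and Δpro#3 against ctrl (right) in 6 gene lists; each point is 1 gene, filled where called, and each bar the median of the list. With NFIA the medians are 1.20 for the 7 genes and 1.91 for fatty acid synthesis, and with Δpro#3 they are 0.40 and 0.49.

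The rest of the route was read from a list of 13 other enzymes, from mevalonate kinase to the last reductases. With NFIA, 13 of 13 were higher than in ctrl at day 0 and 9 of 13 at day 7, beside 13.4% and 16.8% of all genes, with median log2 changes of 1.36 and 0.96. With Δpro#3 it was 11 of 13 at day 0 and 3 of 13 at day 7, beside 7.26% and 6.94% of all genes, with medians of 1.08 and 0.27. Against NFIA the mutant gave lower levels of 3 of the 13 at day 0 and 8 of the 13 at day 7, beside 8.66% and 13.3% of all genes. At day 7 Lbr was below ctrl with NFIA, at a log2 change of -0.46 that was not called. With forskolin in the NFIA cells 4 of 13 rose, beside 3.96% of all genes, most of all Pmvk, which phosphorylates mevalonate phosphate (5.68-fold, log2 change 2.51, SE 0.076, adjusted p = 2.75e-13), and Hsd17b7, a sterol ketoreductase (2.88-fold, log2 change 1.52, SE 0.082, adjusted p = 4.13e-10). Dhcr7, a reductase at the end of the route, fell by 0.75 on the log2 scale, the 1 gene of the 13 called lower, beside 9.56% of all genes.

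Among 9 regulators of sterol sensing, 3 were higher with NFIA at day 7, beside 16.8% of all genes, each with a larger log2 change than any of the 7 genes. Srebf1 was higher by 10.9-fold (log2 change 3.44, SE 0.080, adjusted p = 2.65e-10), Insig1, which retains SREBP in the endoplasmic reticulum, by 15.2-fold (log2 change 3.93, SE 0.082, adjusted p = 1.62e-10) and Nr1h3 by 17.4-fold (log2 change 4.12, SE 0.25, adjusted p = 1.71e-07). With Δpro#3, Insig1 (2.39-fold) and Nr1h3 (1.67-fold, adjusted p = 0.0324) were higher than in ctrl, beside 6.94% of all genes. These regulators were not tested without the Δpro#3 sample that was high in adipocyte markers. Against NFIA, the mutant gave 8.94-fold less Srebf1, 6.35-fold less Insig1 and 10.4-fold less Nr1h3. At day 7 with NFIA, Srebf1 thus stood far above ctrl while Srebf2 did not. With forskolin Srebf1 fell by 1.41 on the log2 scale in the NFIA cells, whereas Srebf2 stood 0.46 higher and was not called. From day 0 to day 7 with NFIA, Srebf1 rose by 2.37-fold and Srebf2 fell by 2.55-fold.

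Fatty acid synthesis, the neighbouring route that starts from the same acetyl-CoA, had 9 of 9 genes higher with NFIA at day 7 and 3 of 9 with Δpro#3, beside 16.8% and 6.94% of all genes. At day 0 it was 8 of 9 with NFIA and 7 of 9 with Δpro#3, beside 13.4% and 7.26% of all genes. Scd1, the stearoyl-CoA desaturase (16.5-fold, log2 change 4.04, SE 0.16, adjusted p = 7.18e-09), and Fasn, the fatty acid synthase (16.0-fold, log2 change 4.00, SE 0.19, adjusted p = 2.51e-08), changed most at day 7. Of 13 genes of sterol transport and storage, 4 were higher with NFIA at day 7, beside 16.8% of all genes. With Δpro#3, 2 were higher and 1 lower, beside 6.94% and 5.79% of all genes, and nothing is read from these counts. Of the 2 that were higher, Lrp1, a scavenging lipoprotein receptor, had the larger rise (2.80-fold, log2 change 1.48, SE 0.093, adjusted p = 2.19e-06). The 1 called lower was Apoe, an apolipoprotein that carries cholesterol (2.19-fold, log2 change -1.13, SE 0.23, adjusted p = 0.00245). The 6 genes that lead farnesyl diphosphate, the product of Fdps, into other isoprenoids had log2 changes with NFIA of -0.018 to 0.55 at day 0 and -0.37 to 0.46 at day 7, all under the fold limit.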

How the data were processed

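Polyadenylated RNA of C2C12 cells was sequenced in 27 samples, 3 for each of 9 groups of construct and time point, which were taken from the labels. The authors aligned the reads to mm9 with STAR 2.5.3a, counted uniquely mapped fragments by gene and strand, and deposited them as FPKM, not scaled between samples. Every value worth fewer than 200 fragments was a whole multiple of 1 fragment (100% within 0.01), so the depth was worked back from the FPKM. Larger values were rounded without this check.

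Expression was compared on log2(FPKM + 1) with limma 3.58.1 in R 4.3.3, with 1 mean per group and variances that follow the mean, in genes that reached a mean of 0.5 FPKM. Constructs were compared in the 9 samples of a time point, and times and forskolin in 18 samples. The p-values are 2-sided and Benjamini-Hochberg adjusted over all genes tested. Figures were drawn with matplotlib 3.10.9 in Python 3.11.15.

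The genes and lists were chosen with earlier results of these data known. Genes outside the 7 are named by rule: the 3 largest called changes over the lists in each of 3 comparisons at day 7, all called regulators at day 7 and the 5 profiles most like the 7. Lbr and Dhcr7 were added after their values were seen. The alternatives were another pseudocount (0.1), median-ratio scaling, no filter or a minimum mean FPKM of 5, only the groups compared, no variance trend, a replicate block, limma-voom on fragments, other fold limits (none, 3-fold) and leaving out each sample. For the Δpro#3 cells at day 7 with and without forskolin, deviations of same-numbered samples correlated at 0.102 to 0.358. Those of samples with other numbers correlated at -0.303 to 0.242. The ranges overlapped, so pairing by number was treated as possible but not shown, from the data and not from the labels. In the other constructs and between day 0 and day 7 at least 1 same-number correlation was under 0.1.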

Additional observations from a re-analysis of the deposited data

Results flagged for a closer look

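Tests of the difference between constructs singled out 6 values. The change from day 0 to day 7 differed from that in ctrl for Idi1 with NFIA (-1.21 on the log2 scale). With Δpro#3 it differed for Acat2 (-0.72), Idi1 (-0.77), Sqle (-0.86) and Lss (-0.63). In all 5 the gene fell in ctrl and fell further with the construct, from a higher level at day 0. The response to forskolin differed for Idi1 with NFIA (1.15). The call on Lss was lost after scaling by median ratios (-0.58).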

How the results depend on the processing

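The counts out of the 7 genes moved most with the fold limit. At more than 3-fold, 2, 0 and 0 genes were called at day 0 (NFIA against ctrl, Δpro#3 against ctrl, Δpro#3 against NFIA), 3, 0 and 1 at day 7, and 0 and 1 with forskolin for Δpro#3 against ctrl and NFIA. It was 0, 1 and 2 for day 7 against day 0 in ctrl, NFIA and Δpro#3 cells, 0 for both differences of that change, and 0 for the response to forskolin in each construct and its difference with NFIA. With no fold limit, counting both directions, 6 genes were called for Δpro#3 against NFIA at day 0, 5 for Δpro#3 against ctrl at day 7 (1 of them lower) and with forskolin, 5 for the difference of the change with NFIA (3 higher and 2 lower), 5 for forskolin with NFIA and with Δpro#3, and 4 and 2 for the difference in response with NFIA and Δpro#3.

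A pseudocount of 0.1 gave 2 genes for Δpro#3 against ctrl at day 7 and 2 for the difference of the change with NFIA (1 higher and 1 lower). Median-ratio scaling gave 3 for the latter (2 higher and 1 lower, as with limma-voom), 4 for forskolin with NFIA and 2 for its difference from ctrl, and limma-voom gave 3, 4 and 2, with 3 for Δpro#3 against ctrl at day 7. Leaving out single samples gave 1 to 2 genes for Δpro#3 against ctrl at day 7 and 1 to 2 for forskolin with Δpro#3. The cause of these moves was not tested. The filters, the variance trend, only the groups compared and the replicate block changed none of the calls on the 7 genes, except that Idi1 was not tested between constructs at day 7 with the minimum of 5 FPKM.

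Values near 0 that were never called changed sign. Under median-ratio scaling and limma-voom these were Srebf2 for the difference of the change with Δpro#3 (0.025 and 0.024), Srebf2 with forskolin in ctrl (0.00046 and 0.00085), Lss with forskolin in NFIA (0.039 and 0.047) and Δpro#3 cells (0.024 and 0.065) and Acat2 for the difference in response with NFIA (0.084 and 0.075), and under limma-voom Fdft1 for Δpro#3 against NFIA at day 0 (-0.0023). Samples were also left out in turn. Acat2 with forskolin then ranged from -0.030 to 0.18 in Δpro#3 cells and from -0.031 to 0.12 in NFIA cells. Its difference in response ranged from -0.060 to 0.15 with Δpro#3 and from -0.061 to 0.088 with NFIA. Fdft1 for Δpro#3 against NFIA at day 0 ranged from -0.020 to 0.021. The difference in response of Fdps with Δpro#3 ranged from -0.024 to 0.083. Lss with forskolin in Δpro#3 cells ranged from -0.082 to 0.034. For Δpro#3 against ctrl after forskolin, Lss ranged from -0.061 to 0.055. Srebf2 for the difference of the change with Δpro#3 ranged from -0.093 to 0.0068.

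Between constructs at 1 time point the replicate numbers did not pair the samples: deviations from the group means of samples with the same number correlated at 0.014 at day 0, -0.031 at day 7 and -0.0019 with forskolin on average. With the replicate number as a block, 6, 6 and 6 of the 7 genes were called for NFIA against ctrl at day 0, at day 7 and with forskolin, as without it. A block for the number within each construct, added after seeing the data for the time and forskolin comparisons, changed no call on the 7 genes. The chi-square per gene between replicates was 1.55 to 15, where counting noise alone gives about 1, so the spread between samples exceeded what depth sets.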
